A study of Mus with 6 samples.

Results

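The actin cytoskeleton of chondrocytes, with the adhesion proteins and transcriptional regulators tied to it, was examined as 59 genes in RNA-seq of mouse knee cartilage chondrocytes. RNA from 3 wild-type (WT) and 3 Sirt6 cKO samples was compared, all of the C57BL/6J strain and, by the study's methods, 12 weeks of age. Sirt6 cKO mice carried Sirt6 flox/flox and Col2a1-CreERT2, a tamoxifen-inducible Cre recombinase driven by the promoter of the type II collagen gene, which is active in chondrocytes. Sirt6 is a NAD-dependent deacylase of chromatin. Elsewhere in the study WT is a group apart from Sirt6 flox/flox mice. When tamoxifen was given for these samples is not stated in the sources used here. The labels describe frozen cartilage while the methods describe primary chondrocyte culture, so the state of the cells at lysis is uncertain.

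Members were chosen by gene name, not by their counts, though with earlier results of these data known. They were the actins, actin-related proteins, tropomyosins, calponins, myosins, adhesion plaque genes, intermediate filament genes Vim and Des, and the SRF, TAZ, TEAD, LATS and angiomotin genes. Only rows 1 to 1768 and 3211 to 8064 of the 11659 rows of the count table were used, because a gene's counts follow its exon length there on the same row (Spearman's correlation across genes 0.25 and 0.295), whereas in rows 1769 to 3210 it was -0.002 on the same row and 0.266 with the counts 1 row down. Rows past 8064 were not used here. Of 95 rows with a member name, 59 lay in these stretches, and 36, Yap1, Actg1, Vcl, Myh9 and Ptk2 among them, were not used here. The name patterns also took in 4 genes that belong to none of the families named above (Mylip, Cflar, Cnnm3 and Cnnm4), which leaves 55 genes in 12 role lists.

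In cartilage, the actin network sets cell shape. Rounded chondrocytes hold a cortical actin shell, while spread, dedifferentiating chondrocytes assemble stress fibres that end in focal adhesions. Free actin monomers hold the MRTF coactivators of serum response factor (SRF) in the cytoplasm, and LATS kinases and angiomotins do the same for YAP and TAZ, the coactivators of the TEAD factors, so that filament assembly is linked to transcription.

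At an adjusted p under 0.05 (edgeR's quasi-likelihood test, adjusted over 11246 genes), 15 of the 59 genes (25.4%) were higher in Sirt6 cKO, against 22.5% of all tested genes, a share near the background. A further 24 genes (40.7%) were lower, against 24.3% of all tested genes, and 20 did not pass. With a fold change over 2 in addition, Lmod1, Tpm1, Mylip and Lats1 were higher, 4 genes against a background of 8.72%. Vim and Cnn1 were lower by more than this fold, 2 genes against a background of 7.15%. The normalized counts of the 3 Sirt6 cKO samples did not overlap those of the 3 WT samples in 46 of the 59 genes (78.0%), compared with 60.9% of all tested genes. The median log2 fold change of the members was -0.22 and that of all tested genes 0.002.

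**Figure D1:**
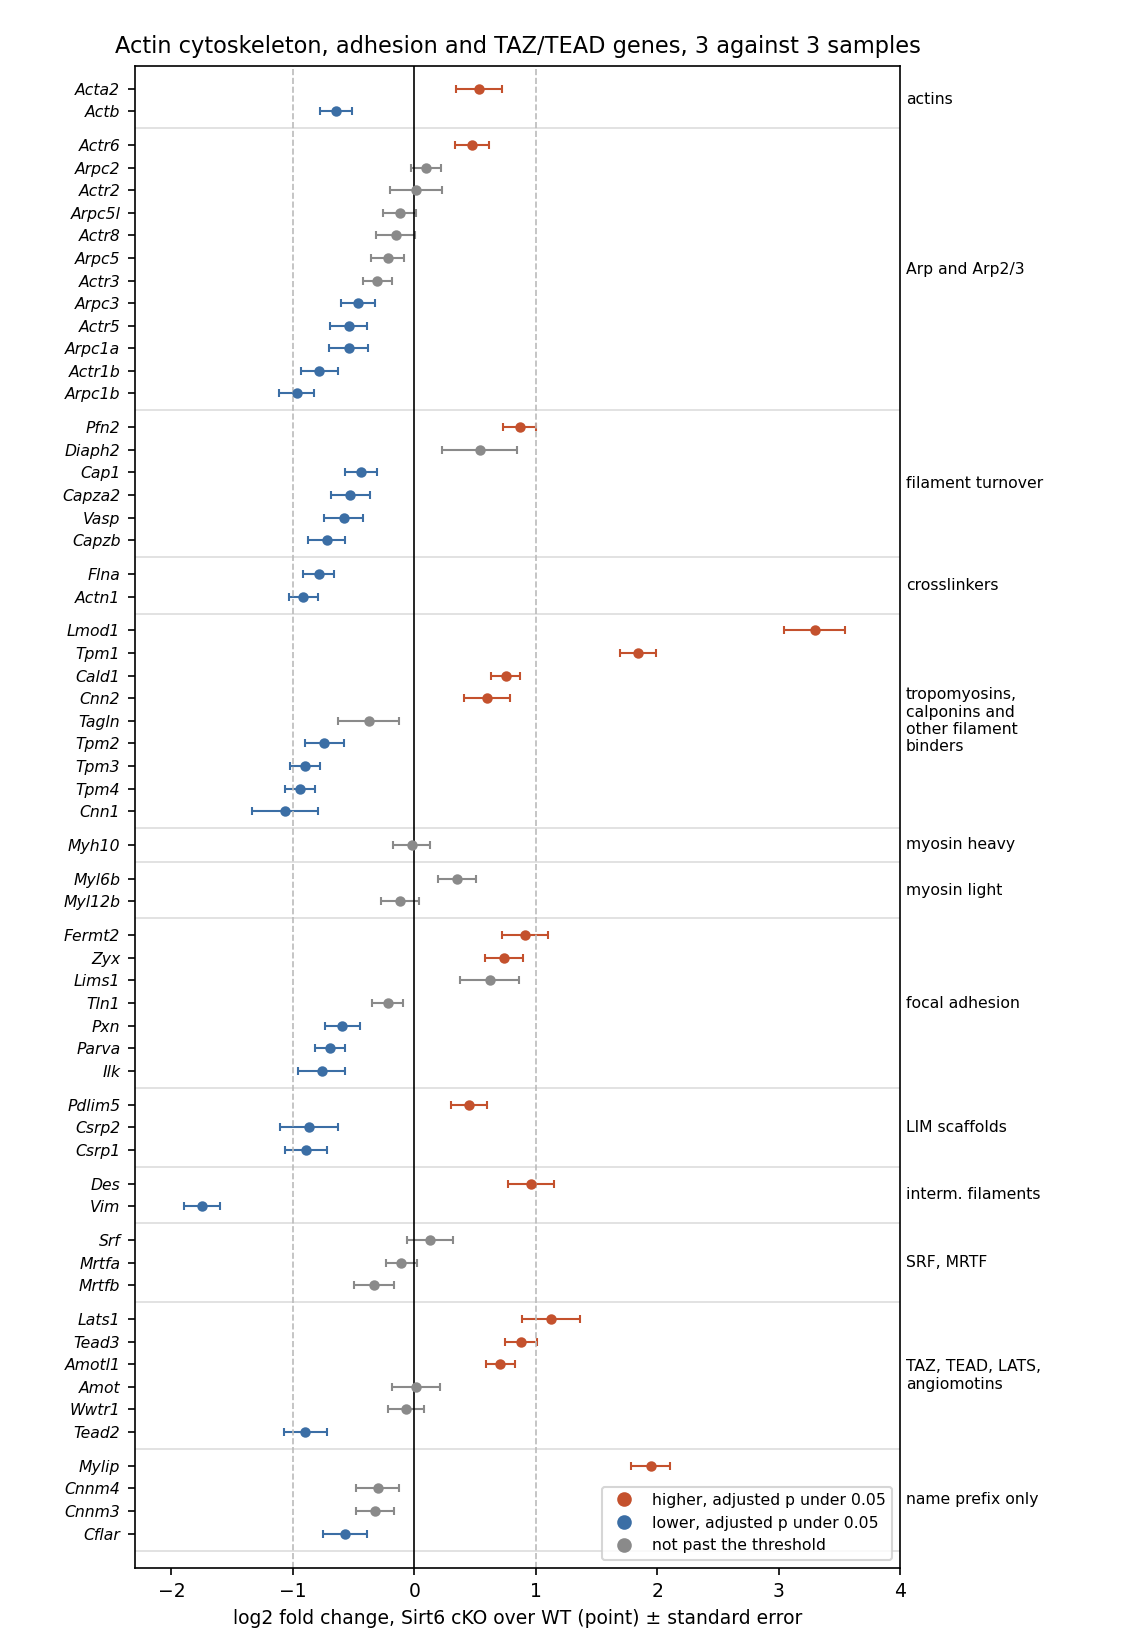
Log2 fold change of each of the 59 genes, Sirt6 cKO over WT, with its standard error, grouped by role; the dashed lines mark a fold of 2. The points run from -1.75 for Vim to 3.30 for Lmod1, with 15 genes higher and 24 lower at an adjusted p under 0.05.

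The targeted gene fell in every knockout sample, with raw counts (reads assigned to the gene) of 10273, 9963 and 10943 in WT and 1056, 862 and 660 in Sirt6 cKO (log2 fold change -3.69, SE 0.208, adjusted p = 8e-06). Total counts lay between 25726958 and 30156935 per sample. WT replicate 1 stood apart from the other WT samples: 26.3% of all tested genes deviated from the mean of the others by over 1.5 times there, and the deviation ran with exon length (Spearman's correlation across genes -0.475 over the 6617 tested genes of the usable rows and -0.529 over the 59 members). Among the members, Amot, Lats1, Actr2, Diaph2 and Lims1 were lower by this margin in WT replicate 1, and Acta2, Cnn1, Cnn2 and Tagln were higher. Values without that sample are given beside each of these genes. Of 17 chondrocyte markers, 5 could be used, and 4 of them (Sox9, Col11a1, Comp and Ucma) were higher in Sirt6 cKO, where 22.5% of all tested genes were. Comp and Ucma had few reads in WT, with raw counts of 15, 14 and 28 for Comp and 6, 2 and 6 for Ucma. The remaining usable marker, Col9a3, did not pass (log2 fold change -0.53, adjusted p = 0.0756), with all knockout samples below all WT samples. Their summed level was 199.3 to 217.3 CPM (counts scaled to the library size) in WT and 392.6 to 491.9 in Sirt6 cKO, most of it from Sox9 (mean normalized counts of 5520 in WT and 8486 in Sirt6 cKO, against 201 and 3232 for Col11a1, the next in Sirt6 cKO). The defining Col2a1 and Acan were not analysed here. Of 8 usable markers of synovial fibroblasts (of 11), 5 were higher, again beside 22.5% of all tested genes. These were Lum (log2 fold change 6.56, from raw counts of 0, 4 and 4 in WT), Dcn (3.36), Pdgfra (2.37), Col1a2 (1.99) and Col1a1 (1.34). The 8 markers summed to 11210 to 11480 CPM in WT and 36200 to 41740 in Sirt6 cKO, most of it from Col1a2 and Col1a1. Pdpn (-0.36, adjusted p = 0.0563, all knockout samples below WT), Has1 (-0.26, adjusted p = 0.717) and Thy1 (0.09, adjusted p = 0.605) did not pass. Of 2 usable osteoblast markers (of 7), Col1a1, which is on both lists, was higher, with sums of 3995 to 4148 in WT and 9539 to 10900 in Sirt6 cKO. Of macrophage markers only Cd68 could be used (1.52 to 1.70 in WT and 0.205 to 1.73 in Sirt6 cKO), of skeletal muscle markers only Des, and of endothelial markers none. The part of other cell types in the members' results was not tested.

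Vim, which encodes vimentin, the intermediate filament of mesenchymal cells, had the largest count of all members in WT and fell the most. Raw counts were 151602, 148997 and 151653 in WT and 49430, 53157 and 41582 in Sirt6 cKO. The groups were far apart, and Vim took 0.503% to 0.589% of all counts in a WT sample and 0.142% to 0.182% in a Sirt6 cKO sample. Normalized counts (scaled by the TMM factors to a common library size) averaged 156986 ± 21059.7 (SD, n = 3) in WT and 46678 ± 5532 in Sirt6 cKO, a log2 fold change of -1.75 (SE 0.149, adjusted p = 5.2e-05). The gene lies at chr2:13573927-13582826 (GRCm38). Des, which encodes desmin, the filament of muscle cells, went the other way from a low level, with raw counts of 97, 106 and 107 in WT and 210, 231 and 203 in Sirt6 cKO. No samples overlapped, and the log2 fold change was 0.96 (SE 0.187, adjusted p = 0.00351). In RPKM (counts divided by exon length and by the TMM-scaled library size), the unit in which genes can be compared, Des stood at 0.991 in WT and 1.93 in Sirt6 cKO, against 2335 and 694 for Vim.

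The actins that could be used moved in opposite directions. Actb, the β-actin of all non-muscle cells, fell from raw counts of 87986, 83466 and 92198 in WT to 59598, 62682 and 58515 in Sirt6 cKO (log2 fold change -0.64, SE 0.13, adjusted p = 0.00421). Acta2, the α-actin of smooth muscle and myofibroblasts, gave 19141, 14125 and 16164 reads in the WT samples and 24517, 24552 and 28425 in the knockouts. All Sirt6 cKO values lay above all WT values, but WT replicate 1 came close to the lowest of them after normalization. The log2 fold change of Acta2 was 0.53 (SE 0.192, adjusted p = 0.0477). This call was lost when any sample other than WT replicate 1 was left out (log2 fold change 0.40 to 0.58, adjusted p 0.0887 to 0.135), and the value was 0.78 without WT replicate 1. Per kilobase, Acta2 made up 21.9% ± 2.37 of the sum of these actins in WT and 39.2% ± 2.70 in Sirt6 cKO (n = 3 each). Actin genes share long stretches of near-identical sequence, so that reads can be split between them in a way that depends on the counting, and Actg1 was not analysed here.

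Acta2 is also a marker of smooth muscle. Of 14 such markers 6 could be used, 4 of them members of the network themselves (Acta2, Des and Lmod1 higher, Cnn1 lower). Of the other 2, which are no members, Cspg4 was higher (log2 fold change 0.55, adjusted p = 0.0157) and Smtn did not pass (-0.28, adjusted p = 0.148). Thus 4 of the 6 were higher and 1 was lower, against 22.5% and 24.3% of all tested genes. Tagln, also a smooth muscle marker, was not on this list and did not pass (-0.38, adjusted p = 0.239). The summed level of the 6 was 883.5 to 1240.0 CPM in WT and 1298.0 to 1552.0 in Sirt6 cKO, most of it from Acta2 itself. Myh11, Rgs5 and Notch3, which define smooth muscle and pericytes, were not analysed here. In bulk RNA, a different number of cells of a type and a different amount of RNA per cell cannot be told apart.

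**Figure D2:**
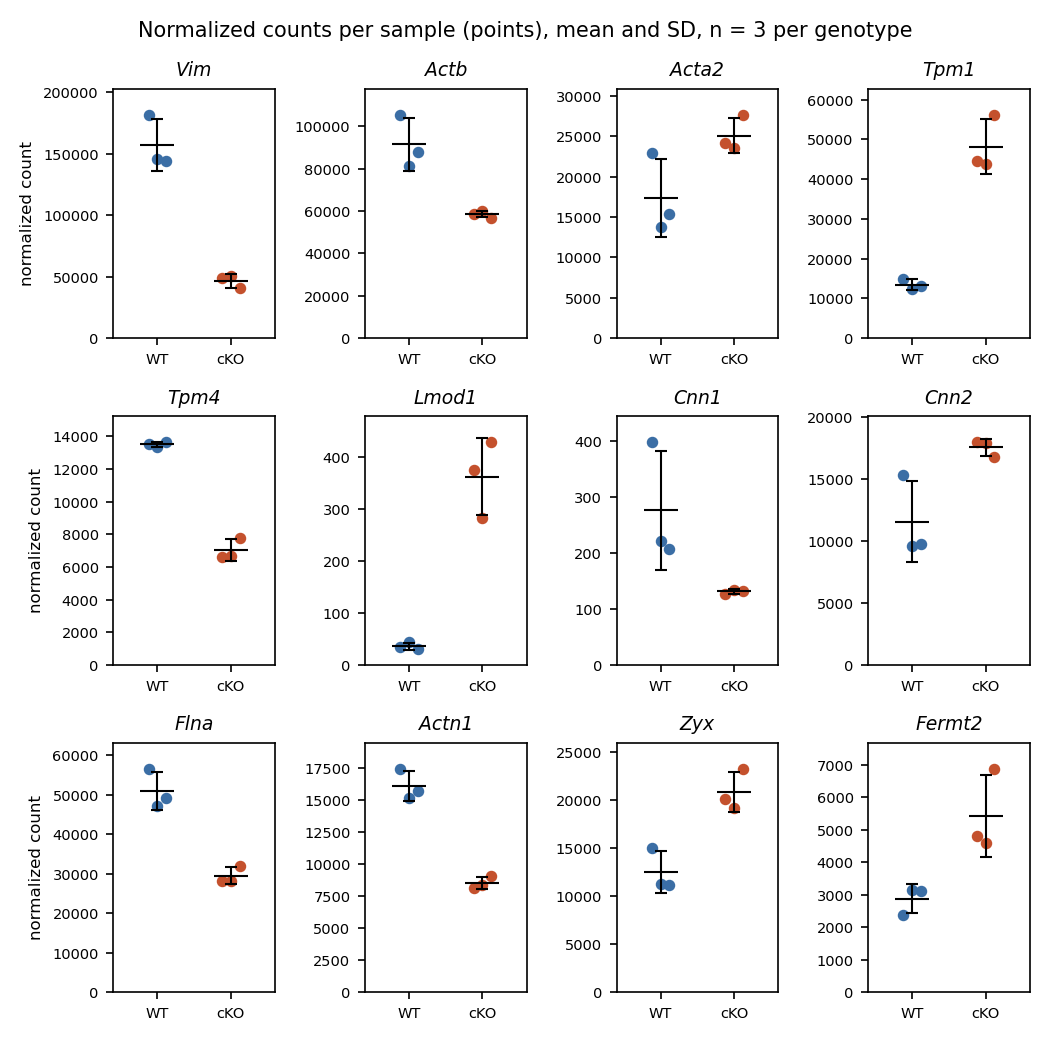
Normalized counts of 12 genes in each sample (points; WT left, Sirt6 cKO right), with the mean and SD of 3 samples; each axis starts at 0. Vim, Actb, Tpm4, Flna, Actn1 and Cnn1 lie lower in every Sirt6 cKO sample than in any WT sample, and Acta2, Tpm1, Lmod1, Cnn2, Zyx and Fermt2 lie higher.

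Tropomyosins are coiled-coil cables that lie along actin filaments and set which other proteins may bind. Among the 9 genes for tropomyosins and other filament-side proteins, 4 were higher and 4 were lower (22.5% and 24.3% of all tested genes were), and Tagln did not pass. Tpm1 (chr9:67022590-67049406) rose from raw counts of 12485, 12601 and 13702 in WT to 45172, 45796 and 57708 in Sirt6 cKO. The groups were far apart. The log2 fold change was 1.84 (SE 0.147, adjusted p = 3.7e-05), and it lay between 1.73 and 1.93 over 14 alternative settings. The other tropomyosin genes fell. Tpm4 held 11327, 13668 and 14328 raw counts in WT against 6706, 6953 and 8030 in Sirt6 cKO (log2 fold change -0.94, SE 0.122, adjusted p = 0.000473). Tpm3 fell by 0.90 on the log2 scale (SE 0.125, adjusted p = 0.000692) and Tpm2 by 0.74 (SE 0.158, adjusted p = 0.00546), again with no overlap between the groups.

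The make-up of the family differed more than its sum did. Per kilobase, Tpm1 made up 18.3%, 17.1% and 17.3% of the counts of the 4 genes in the WT samples and 57.6%, 57.6% and 60.7% in the Sirt6 cKO samples. Tpm4 went from 52.3% ± 3.06 to 25.3% ± 0.445, Tpm2 from 15.3% ± 1.93 to 8.63% ± 0.926, and Tpm3 from 14.8% ± 0.525 to 7.44% ± 0.563 (mean ± SD, n = 3). Tpm4 was thus the leading tropomyosin gene in WT and Tpm1 in Sirt6 cKO. The sum of the 4 genes was 408 ± 26.8 RPKM in WT and 439 ± 48.6 in Sirt6 cKO (exact two-sided permutation test, p = 0.4). For each share the exact test gave p = 0.1, the smallest that 3 against 3 samples allow, or 0.108 when adjusted over the 14 shares and sums compared in the tropomyosin, calponin, actin and TEAD families. In a family of 2 genes the shares are complements, so the 14 comparisons are not independent. These families, like the members, were chosen with earlier results of these data known. Each tropomyosin gene makes several isoforms by alternative promoters and exons, which gene counts do not separate.

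**Figure D3:**
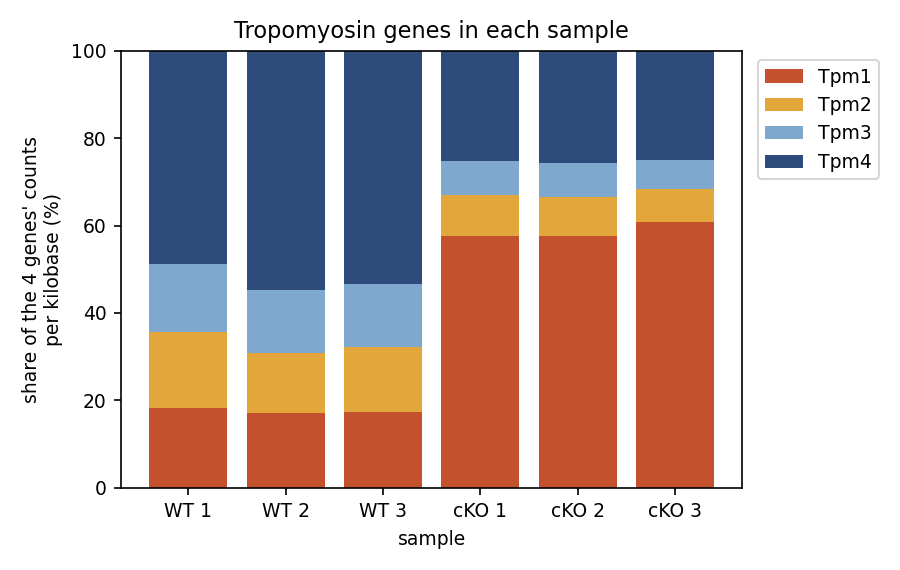
Share of each tropomyosin gene in the summed counts per kilobase of Tpm1 to Tpm4 (%, bars stacked to 100), per sample. Tpm1 takes 17.1% to 18.3% in the WT samples and 57.6% to 60.7% in the Sirt6 cKO samples.

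Lmod1 (chr1:135324807-135368065) had the largest fold change of all 59 genes. It encodes leiomodin 1, which nucleates actin filaments in smooth muscle. Raw counts were 30, 45 and 32 in WT and 381, 296 and 441 in Sirt6 cKO, so the gene was near the bottom of the range in WT but far above a count of 0 in the knockout. Normalized counts averaged 36.7 ± 6.77 in WT and 363 ± 73.5 in Sirt6 cKO (n = 3), a log2 fold change of 3.30 (SE 0.251, adjusted p = 2.9e-05). Even so, Lmod1 reached only 3.19 RPKM in Sirt6 cKO, compared with 258 for Tpm1.

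Cald1, the gene of caldesmon, which ties actin to myosin, rose from raw counts of 15794, 22725 and 24042 in WT to 36070, 39238 and 35498 in Sirt6 cKO (log2 fold change 0.75, SE 0.123, adjusted p = 0.00156). The calponins, filament-binding inhibitors of actomyosin, split. Cnn1 (chr9:22099281-22109630), the calponin of smooth muscle, was counted 333, 228 and 219 times in WT and 129, 141 and 137 times in Sirt6 cKO. The knockout samples were tightly grouped below WT, whose first replicate was well above the others. The log2 fold change of Cnn1 was -1.06 (SE 0.269, adjusted p = 0.0117), and without WT replicate 1 it was -0.71, which is inside the fold limit. Cnn2, the more widely expressed calponin, had 12808, 9814 and 10286 reads in WT samples and 18219, 18695 and 17238 in Sirt6 cKO samples (log2 fold change 0.60, SE 0.188, adjusted p = 0.0277). Its call was lost when any sample other than WT replicate 1 was left out (log2 fold change 0.49 to 0.65, adjusted p 0.0589 to 0.09), and the value was 0.86 without WT replicate 1. Cnn2 supplied 97.6% ± 0.234 of the calponin counts per kilobase in WT and 99.2% ± 0.0444 in Sirt6 cKO. Tagln, the gene of transgelin (SM22), a common smooth muscle marker, gave 1844, 1335 and 1644 reads in the WT samples and 1229, 1026 and 1760 in the knockouts. The groups overlapped, and the log2 fold change of -0.38 (SE 0.248, adjusted p = 0.239) did not pass, with values of -0.14 without WT replicate 1 and -0.61 without Sirt6 cKO replicate 3.

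Both crosslinkers of actin filaments that could be used fell, where 24.3% of all tested genes were lower. Actn1, or α-actinin 1, which bundles filaments in stress fibres, held 14525, 15527 and 16461 raw counts in WT against 8258, 8707 and 9331 in Sirt6 cKO (log2 fold change -0.92, SE 0.12, adjusted p = 0.000508). Flna, or filamin A, which joins filaments at wide angles and to integrins, was counted 47205, 48385 and 51592 times in WT and 28559, 29529 and 32985 times in Sirt6 cKO (log2 fold change -0.79, SE 0.126, adjusted p = 0.00137). The groups did not overlap for either gene. Over the 14 alternative settings Actn1 stayed between -0.95 and -0.84 and Flna between -0.84 and -0.71.

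The 12 actin-related protein genes hold the subunits of the Arp2/3 complex, which starts branched filaments, and other family members with roles outside it. Of these genes 1 was higher, against 22.5% of all tested genes, 5 were lower, against 24.3%, and 6 did not pass. Arpc1b, a regulatory subunit of Arp2/3, had 15309, 13995 and 14364 reads in WT samples and 8064, 8021 and 7890 in Sirt6 cKO samples (log2 fold change -0.97, SE 0.146, adjusted p = 0.00106). Its paralog Arpc1a, which lies next to it on chromosome 5, was at -0.54 (SE 0.159, adjusted p = 0.0223), and Arpc3 at -0.47 (SE 0.14, adjusted p = 0.0242). The Arp2 and Arp3 genes themselves did not pass. Actr2 was at 0.01 (SE 0.213, adjusted p = 0.967) with overlapping groups, and at -0.21 without WT replicate 1. Actr3 was at -0.30 (SE 0.119, adjusted p = 0.0635), with all knockout samples below all WT samples after normalization, and passed without WT replicate 1 (-0.34, adjusted p = 0.011). Arpc2 had the highest mean level per kilobase of the usable subunits (106 in WT and 113 in Sirt6 cKO), within the spread of Arpc1b in WT (104 ± 18.3). Arpc2 was at 0.10 (adjusted p = 0.537), and Arpc5 and Arpc5l were at -0.22 and -0.12 with overlapping groups.

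Outside the complex, Actr1b, a subunit of the dynein adaptor dynactin, fell by 0.78 on the log2 scale (SE 0.155, adjusted p = 0.00393). Among the nuclear members, Actr5 of the INO80 chromatin remodeller was lower (-0.54, adjusted p = 0.0199), Actr8 of the same complex did not pass (-0.15, adjusted p = 0.462) and Actr6 of the SRCAP remodeller was higher (0.47, adjusted p = 0.0232). Several of the smaller changes were not called in every fit with 1 sample left out. Without WT replicate 3 or any 1 of the Sirt6 cKO samples, Actr5 and Arpc3 lost their calls (adjusted p 0.0501 to 0.0653 and 0.0691 to 0.077). Arpc1a did so without any 1 of the Sirt6 cKO samples (0.0518 to 0.0816). Actr6 did so without WT replicate 2 or 3 or Sirt6 cKO replicate 1 or 2 (0.0592 to 0.0862). All 4 kept their direction in these fits.

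Of the 6 genes for filament turnover and elongation, 4 were lower and 1 was higher, beside 24.3% and 22.5% of all tested genes. Capzb, the β subunit of capping protein, which blocks the growing filament end, gave 6792, 6068 and 6509 reads in the WT samples and 4301, 4220 and 4108 in the knockouts (log2 fold change -0.72, SE 0.15, adjusted p = 0.0048). Its partner Capza2 was at -0.53 (SE 0.159, adjusted p = 0.0246), Vasp, which elongates filaments and shields them from capping, at -0.58 (SE 0.161, adjusted p = 0.017), and Cap1, which recycles actin monomers, at -0.44 (SE 0.133, adjusted p = 0.0251). Cap1 was the most abundant of these per kilobase, at 189 in WT and 139 in Sirt6 cKO. The last 3 calls were not made in every fit with 1 sample left out. Capza2 did not pass without WT replicate 2 or 3 or Sirt6 cKO replicate 1 or 2 (adjusted p 0.0865 to 0.0925), Cap1 without WT replicate 3 or any 1 of the Sirt6 cKO samples (0.0528 to 0.0816), and Vasp without any 1 of the Sirt6 cKO samples (0.0551 to 0.0637).

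Pfn2, a profilin that delivers actin monomers to growing ends, was the member of this list that rose. Raw counts were 1492, 1584 and 1675 in WT and 2979, 2902 and 3355 in Sirt6 cKO, with a wide gap between the groups (log2 fold change 0.87, SE 0.132, adjusted p = 0.0011). The formin gene Diaph2 held 358, 1009 and 973 raw counts in WT against 919, 1090 and 1493 in Sirt6 cKO. The groups overlapped through the first knockout replicate, and WT replicate 1 was far below the others. The log2 fold change was 0.54 (SE 0.306, adjusted p = 0.177). With the replicate number as a block it was 0.60 (adjusted p = 0.0207), and without WT replicate 1 it was 0.25.

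Focal adhesions couple integrins to actin through layered adaptors. All 7 plaque genes that could be used had groups without overlap after normalization, against 60.9% of all tested genes. Of these 7, 2 were higher (22.5% of all tested genes were), 3 were lower (24.3%) and 2 did not pass. Zyx, the gene of zyxin, which sits on the actin side of mature adhesions and on strained filaments, was counted 12555, 11566 and 11718 times in WT and 20408, 20064 and 23882 times in Sirt6 cKO (log2 fold change 0.74, SE 0.154, adjusted p = 0.0049). Fermt2, or kindlin 2, an integrin activator, had 1985, 3231 and 3286 reads in WT samples and 4886, 4798 and 7064 in Sirt6 cKO samples (log2 fold change 0.91, SE 0.192, adjusted p = 0.00519). Sirt6 cKO replicate 3 was the highest for both genes, and without it Fermt2 was at 0.72 and Zyx at 0.67, both still called. The other integrin activator, Tln1 (talin 1), gave 11089, 11462 and 12023 reads in the WT samples and 9707, 10602 and 11474 in the knockouts and did not pass (log2 fold change -0.22, SE 0.128, adjusted p = 0.19).

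Pxn, the scaffold paxillin, was lower, with raw counts of 3823, 3843 and 3597 in WT and 2690, 2796 and 2521 in Sirt6 cKO (log2 fold change -0.59, SE 0.145, adjusted p = 0.00992). The 3 partners of the complex of integrin-linked kinase, PINCH and parvin did not move together. Parva fell from raw counts of 8062, 8621 and 9361 to 5719, 6179 and 5268 (log2 fold change -0.69, SE 0.124, adjusted p = 0.00236). Ilk held 1202, 1049 and 1165 raw counts in WT against 866, 710 and 587 in Sirt6 cKO (log2 fold change -0.76, SE 0.195, adjusted p = 0.0124). This gene is uncertain, because 76.7% of its exon bases lie on the opposite strand of exons of the gene ENSMUSG00000043866 (log2 fold change -0.90, adjusted p = 0.00872) and 12.9% on those of Rrp8 (-0.87, adjusted p = 0.0139), and although the methods describe strand-specific libraries, the strand setting of the counting is not given in the sources used here. Lims1, the PINCH gene, was counted 1926, 4621 and 4649 times in WT and 5331, 5835 and 6637 times in Sirt6 cKO. WT replicate 1 was far below the other WT samples. The log2 fold change of Lims1 was 0.62 (SE 0.242, adjusted p = 0.0619), and it passed with the replicate number as a block (0.68, adjusted p = 0.00749), without WT replicate 1 (0.37, adjusted p = 0.0183), without WT replicate 2 (0.79, adjusted p = 0.0385), with DESeq2 (0.63, adjusted p = 0.0279), with upper-quartile factors (0.70, adjusted p = 0.0385) and with limma-voom (0.68, adjusted p = 0.0497), but not in the other 8 alternative fits.

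Of the 3 scaffold genes Csrp1, Csrp2 and Pdlim5, 1 was higher and 2 were lower, where 22.5% and 24.3% of all tested genes were. Zyx, Pxn and Lims1, described with the plaque genes, also encode LIM domains. Csrp1, a filament-bundling cysteine-rich protein, had 3361, 2881 and 3062 reads in WT samples and 1938, 1911 and 1553 in Sirt6 cKO samples (log2 fold change -0.89, SE 0.176, adjusted p = 0.00382). Csrp2 of the same family gave 2985, 2577 and 2521 reads in the WT samples and 1869, 1840 and 1083 in the knockouts (log2 fold change -0.86, SE 0.24, adjusted p = 0.0174). Sirt6 cKO replicate 3 was the lowest for both, and without it Csrp2 was at -0.64. Pdlim5, which brings kinases to α-actinin, held 2656, 4345 and 4296 raw counts in WT against 5132, 5214 and 5838 in Sirt6 cKO (log2 fold change 0.45, SE 0.148, adjusted p = 0.0336). Its call was lost without WT replicate 3 or any 1 of the Sirt6 cKO samples (adjusted p 0.0578 to 0.0868).

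None of the 3 usable non-muscle myosin genes passed, where 22.5% of all tested genes were higher and 24.3% lower. Myh10, the heavy chain of non-muscle myosin IIB, was counted 7278, 12367 and 12754 times in WT and 10363, 12021 and 10981 times in Sirt6 cKO (log2 fold change -0.02, SE 0.154, adjusted p = 0.914), and its sign depended on the scaling. Myl12b, a regulatory light chain, was at -0.12 (SE 0.156, adjusted p = 0.565). Myl6b, an essential light chain, was at 0.35 (SE 0.156, adjusted p = 0.095), with all knockout samples above all WT samples. It passed without WT replicate 1 (0.44, adjusted p = 0.0251) and when scaled to total counts alone (0.40, adjusted p = 0.044). Most of the myosin genes that bear a member name, Myh9 and Myl9 included, were not analysed here.

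SRF and its coactivators did not pass at the level of their own transcripts (22.5% of all tested genes were higher and 24.3% lower). Srf had 3205, 2705 and 2984 reads in WT samples and 3180, 3035 and 4244 in Sirt6 cKO samples, with overlapping groups (log2 fold change 0.13, SE 0.191, adjusted p = 0.611; -0.02 without Sirt6 cKO replicate 3). Mrtfa gave 2950, 3071 and 3242 reads in the WT samples and 3038, 3129 and 3020 in the knockouts. After normalization the Sirt6 cKO samples of Mrtfa lay just below WT (log2 fold change -0.11, SE 0.125, adjusted p = 0.509). Mrtfb held 1133, 1846 and 2055 raw counts in WT against 1371, 1522 and 1289 in Sirt6 cKO (log2 fold change -0.33, SE 0.163, adjusted p = 0.125). Here too WT replicate 1 was the lowest of its group, and Mrtfb passed without it (-0.47, adjusted p = 0.00518).

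In the list of TAZ, TEAD, LATS and angiomotin genes, 3 were higher and 1 was lower, compared with 22.5% and 24.3% of all tested genes, and 2 did not pass. Wwtr1, which encodes TAZ, was counted 4308, 5750 and 5966 times in WT and 4859, 4872 and 6445 times in Sirt6 cKO (log2 fold change -0.06, SE 0.148, adjusted p = 0.743). The groups overlapped, and the value was 0.01 without Sirt6 cKO replicate 2. Wwtr1 had the highest level of this list per kilobase, at 39.8 in WT and 38.1 in Sirt6 cKO. Its partner Yap1 was not analysed here.

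The TEAD factors, which bring YAP and TAZ to DNA, moved in opposite directions. Tead2 had 5099, 4237 and 4294 reads in WT samples and 2561, 2828 and 2532 in Sirt6 cKO samples (log2 fold change -0.90, SE 0.177, adjusted p = 0.00375). Tead3 gave 454, 562 and 652 reads in the WT samples and 1050, 1108 and 1085 in the knockouts (log2 fold change 0.88, SE 0.133, adjusted p = 0.00105). Neither gene had overlapping groups. Per kilobase, Tead3 made up 11.6% ± 2.70 of the sum of both in WT and 30.3% ± 0.946 in Sirt6 cKO, so that Tead2 led in both genotypes. Their sum was 49.7, 35.1 and 35.3 RPKM in the WT samples and 27.0, 28.5 and 26.6 in the Sirt6 cKO samples (exact two-sided permutation test, p = 0.1, the smallest possible, and 0.108 adjusted). Tead1 was not analysed here.

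Lats1 (chr10:7681209-7716458), the kinase that phosphorylates YAP and TAZ and keeps them out of the nucleus, held 1396, 3113 and 3262 raw counts in WT against 5419, 5332 and 6804 in Sirt6 cKO. All knockout samples were higher, although WT replicate 1 was well below the other WT samples. The log2 fold change was 1.13 (SE 0.237, adjusted p = 0.00505), and without WT replicate 1 it was 0.89, still called but inside the fold limit. Amotl1, an angiomotin-like junction protein that binds YAP and TAZ, was counted 4528, 6012 and 6517 times in WT and 9440, 9729 and 10214 times in Sirt6 cKO (log2 fold change 0.71, SE 0.118, adjusted p = 0.00173). Amot itself had 771, 1576 and 1571 reads in WT samples and 1311, 1492 and 1305 in Sirt6 cKO samples. The groups overlapped, and the log2 fold change was 0.01 (SE 0.198, adjusted p = 0.967) or -0.19 without WT replicate 1.

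**Figure D4:**
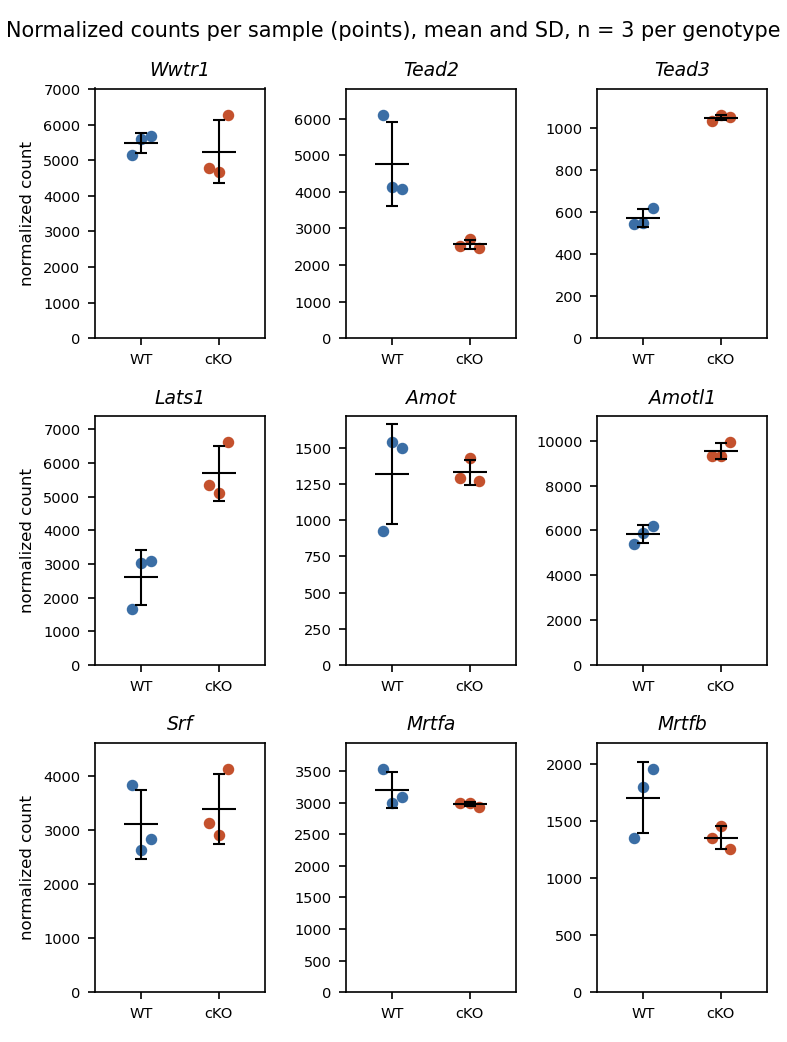
Normalized counts of the TAZ, TEAD, LATS, angiomotin and SRF genes in each sample (points; WT left, Sirt6 cKO right), with the mean and SD of 3 samples; each axis starts at 0. Tead3, Lats1 and Amotl1 lie higher in every Sirt6 cKO sample and Tead2 lies lower, while Wwtr1, Amot, Srf and Mrtfb overlap between genotypes.

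Genes that act beside the members were listed from textbook knowledge, and those in the usable rows were counted. Of 8 usable target genes of YAP and TEAD, 3 were higher and 3 were lower, again against 22.5% and 24.3% of all tested genes. F3, which encodes tissue factor, was higher (log2 fold change 3.28, SE 0.164, adjusted p = 5.1e-06), as was the stress-response gene Gadd45a (2.61, SE 0.271, adjusted p = 0.000147). Birc5, or survivin, which acts in cell division, was lower (-2.27, SE 0.135, adjusted p = 9.35e-06), as was Ccn2, or CTGF, a matricellular protein often used as a YAP readout (-1.03, SE 0.146, adjusted p = 0.000743). Ptpn14 was the third higher gene (0.67, SE 0.119, adjusted p = 0.00224) and Ccn1, or CYR61, the third lower (-0.81, SE 0.251, adjusted p = 0.0274), and Arhgef17 and Foxf2 did not pass. The median log2 fold change of these targets was 0.02. Of 11 other Hippo pathway genes, 1 was higher and 2 were lower, beside the same shares of all tested genes, and 8 did not pass. Ptpn14 was the higher gene, and Wwc1 (-0.63, adjusted p = 0.0118) and Mob1a (-0.49, adjusted p = 0.0186) were lower. Rassf1 was among those that did not pass (-0.38, adjusted p = 0.0883). Wwc1 lost its call without Sirt6 cKO replicate 1 or 2 (adjusted p 0.0538 to 0.0601) and Mob1a without WT replicate 2 or 3 or Sirt6 cKO replicate 1 or 2 (0.0691 to 0.0819), while Rassf1 passed without Sirt6 cKO replicate 3 (-0.53, adjusted p = 0.0242).

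Of 13 other adhesion adaptors, 1 was higher and 3 were lower, against 22.5% and 24.3% of all tested genes, and 9 did not pass. Tns2 was higher (log2 fold change 0.76, adjusted p = 0.00282), and Bcar1 (-0.92, adjusted p = 0.00256), Src (-0.81, adjusted p = 0.00236) and Msn (-0.54, adjusted p = 0.00633) were lower.

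Of the 4 genes that the name patterns took in from outside the role lists, 1 was higher and 1 was lower, near the 22.5% and 24.3% of all tested genes, and 2 did not pass. Mylip (chr13:45389742-45412019), a ubiquitin ligase of the LDL receptor, rose from raw counts of 441, 670 and 497 in WT to 2234, 2315 and 2011 in Sirt6 cKO (log2 fold change 1.95, SE 0.16, adjusted p = 4.18e-05). Cflar, an inhibitor of caspase 8, was at -0.57 (SE 0.181, adjusted p = 0.0293). Its call was lost without WT replicate 2 or 3 or Sirt6 cKO replicate 1 or 3 (adjusted p 0.0695 to 0.106). The magnesium transporter genes Cnnm3 and Cnnm4 were at -0.32 and -0.30 and did not pass (adjusted p = 0.125 and 0.185). Cnnm4 passed without Sirt6 cKO replicate 3 (-0.47, adjusted p = 0.043), but was at -0.17 without Sirt6 cKO replicate 2.

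In RPKM, Vim (2335), Actb (1186), Acta2 (338), Tpm4 (213) and Cap1 (189) led the members in WT, with Flna (188) within the spread of Cap1 (SD 25.2). In Sirt6 cKO the order was Actb (759), Vim (694), Acta2 (490), Tpm1 (258) and Cnn2 (248). Tpm1 thus moved from rank 17 to rank 4 of the 59 genes and Tpm4 from rank 4 to rank 10. These ranks are approximate. In WT, Tpm1 (71.9, SD 7.28) lay within its spread of Vasp (76.3), Myl12b (73.3) and Capzb (71.0). In Sirt6 cKO, Tpm4 (111, SD 10.7) lay within its spread of Arpc2 (113) and Flna (109). Actb (759 ± 20.5) and Vim (694 ± 82.3) lay within their spread of each other in Sirt6 cKO, as did Tpm1 (258 ± 36.9) and Cnn2 (248 ± 9.58), mean ± SD of 3 samples. Across the members, the log2 fold change and exon length had a Spearman's correlation of 0.162 (59 genes, which share the 6 libraries), compared with 0.186 over the 6617 tested genes of the usable rows.

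**Figure D5:**
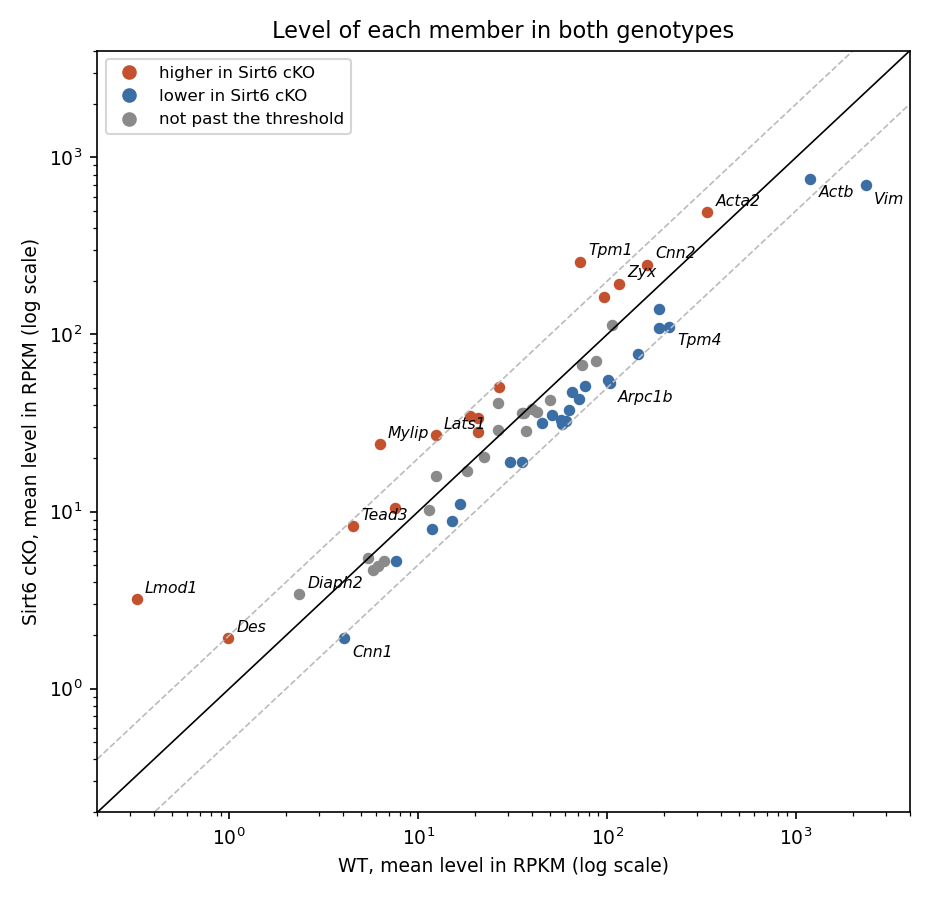
Mean level of each of the 59 genes in WT and in Sirt6 cKO, in RPKM, on log axes; the solid line marks equal levels and the dashed lines a fold of 2. Vim (2335 against 694) lies furthest below the line, and Lmod1 (0.323 against 3.19) and Tpm1 (71.9 against 258) lie far above it.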

How the data were processed

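The deposited values are raw counts, 1 row for each Ensembl gene and 1 column for each sample, and the authors did not normalize them; exon positions and lengths stand beside them. The submitters' processing notes name cutadapt, HISAT2 2.0.5 and StringTie and the human build hg19, while the coordinates in the table are those of mouse GRCm38. The counter and its strand setting are not given in the sources used here, and labels and methods name different library kits and sequencers. A row took the name of the RefSeq gene of GRCm38.p6 with which it shared 0.5 or more of their joint span, which named 10609 rows. Exon length was correlated with counts on the same and neighbouring rows, and only the stretches where the same row gave the highest value were used for members.

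Counts were tested in R 4.3.3 with edgeR 4.0.16 (TMM, filterByExpr, glmQLFit, glmQLFTest, genotype as the only term) over the whole table, with Benjamini-Hochberg adjustment over 11246 genes. The filter left out 413 genes, none of them members. The standard error is the log2 fold change divided by the root of F. Nothing says that the samples came from separate mice or cultures beyond the study's statement on mice. The p-values set the genotype difference against the spread between these samples. Whether that is a spread between mice is not known from the sources used here. The same-numbered WT and Sirt6 cKO samples had correlations of 0.262, 0.104 and 0.136 across genes, taken on deviations from the group means. Other pairings ran from -0.227 to 0.062. The sample titles hold replicate numbers but name no pairing. These values cannot show a pairing either, because among 3 against 3 samples some matching must come out highest. The replicate block was fitted as an alternative. On simulated counts with 200 planted genes (folds of 2 and 0.5), 149 of 196 tested were called, as were 13 unchanged genes of the 11114 tested in total. The simulation planted far fewer changes than were called in these data. It gave WT replicate 1 no deviation along exon length, so it does not measure the rate of false calls here.

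The members and gene lists were chosen with earlier results of these data known. Named with values were all members past the fold limit, in each role list the 4 with the smallest adjusted p and the highest level, all SRF and TAZ list members, and the 4 smallest adjusted p of each list of non-members, of which 1 list is not reported here. Every other member, and Ccn1, was named after its values were seen. Alternatives were other scalings (RLE, upper quartile, total counts), DESeq2 1.42.0, limma-voom (limma 3.58.1), other filters, an adjusted p under 0.01, the block and each sample left out. A search of promoters for motifs was not run, since no promoter sequence was given.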

Additional observations from a re-analysis of the deposited data

How the results depend on the processing

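Over 14 alternative fits no member called in the main comparison changed sign. The count of higher genes was 15 to 17 and of lower genes 21 to 24 under the other scalings, tests, filters and the replicate block, and 11 to 17 and 17 to 26 with 1 sample left out. With the replicate number as a block, which the sample titles do not give as a pairing, 17 were higher and 24 lower. Lims1 and Diaph2 were added (adjusted p = 0.00749 and 0.0207), and no other call changed. At an adjusted p under 0.01, 11 were higher and 14 lower. The count lower past the fold limit was 2, but 1 with upper-quartile factors, total counts alone or limma-voom, and 1 to 3 with 1 sample left out (1 without WT replicate 1). Upper-quartile factors took the calls from Arpc3, Cap1 and Cflar and added Lims1, and total counts alone from Cflar. The median of the members was -0.14 to -0.22 over the scalings, and that of all tested genes 0.002 to 0.08. Signs turned for genes that did not pass: Wwtr1 was at 0.00892 with upper-quartile factors and Myh10 at 0.0558, or 0.0225 with total counts alone. With 1 sample left out, Srf ran from -0.0242 to 0.307, Amot from -0.189 to 0.15, Wwtr1 from -0.197 to 0.0127, Actr2 from -0.211 to 0.161, Myh10 from -0.164 to 0.0682 and Myl12b from -0.203 to 0.048. The causes were not tested. The members' raw counts ran from 30 (Lmod1 in WT) upward, and for genes with few reads counting error is part of the spread between samples.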
